A study of Mus musculus with 11 samples.

Results

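The genes described here are 10 genes by which the cells lining blood and lymphatic vessels are commonly recognised, measured in mouse keratoacanthomas and in normal skin. They are Pecam1, Cdh5, Kdr, Flt1, Tek, Plvap, Emcn, Lyve1, Prox1 and Flt4. Each was found through the array's annotation, taking the probesets (the groups of probes that the array reports as 1 value) that named that gene and no other. All 10 were measured, of 20352 genes in all, with 6 (Plvap) to 33 (Flt1) probesets each. A gene's level is the median of its probesets on the log2 scale, so that a difference of 1 is a doubling, and levels of different genes are not compared, since probes differ in brightness.

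The arrays were 11 single-colour whole-transcript arrays, 1 for each piece of snap-frozen tissue. Keratoacanthomas, squamous tumours of the skin, filled 5 of them, and all 5 came from mice carrying both the K14-Cre and the Zmiz1 transgene. Normal skin filled 6: pieces 1 and 2 came from mice with both transgenes, pieces 3 and 4 from mice with K14-Cre only, and pieces 5 and 6 from mice with Zmiz1 only. In K14-Cre mice the keratin 14 promoter drives Cre recombinase in basal keratinocytes, so that the model targets the epidermis. The age and strain of the mice are not given in the sources used here, and neither is whether each piece had its own animal. The p-values therefore measure the spread between these pieces, which may be technical in part.

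Endothelial cells are joined by adhesion proteins and carry receptor tyrosine kinases for vascular endothelial growth factors (VEGF) and angiopoietins, which direct the growth, stability and permeability of vessels. VEGF-A acts on blood vessels through KDR and FLT1, VEGF-C and VEGF-D act on lymphatic vessels through FLT4, and angiopoietins act through TEK, also called TIE2. Skin holds a capillary bed below the epidermis, larger vessels in the deep dermis and a lymphatic network beside them.

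Other tissues differed between the pieces and are given first. Of 10 skeletal muscle genes 10 were lower in keratoacanthoma, where 10.8% of all genes were lower. Their mean levels were 5.41 to 7.13 in the tumours and 10.3 to 11.6 in normal skin. Fat cell genes were lower for 6 of 9 (5.97 to 6.84 in the tumours, 7.23 to 8.24 in skin), and fibroblast genes for 5 of 10 (7.03 to 8.07 and 8.28 to 8.98). Of 8 keratinocyte genes 4 were higher (10.7 to 10.9 in the tumours, 9.74 to 10.3 in skin), where 14.5% of all genes were. Hair shaft keratins stood high in normal skin 1 (mean 9.77), normal skin 3 (9.49) and keratoacanthoma 4 (8.64), against 5.80 to 6.23 on the other 8 arrays. The part of these tissues in the values below was not tested. In such bulk pieces, fewer cells of a type and less RNA per cell cannot be told apart. Array medians ran from 6.22 to 6.27, and the number of arrays limits the precision.

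The 10 endothelial genes did not move as a block. In keratoacanthoma, 3 were higher (Emcn, Kdr and Flt1), 2 were lower (Tek and Plvap) and 5 did not pass the limma test at an adjusted p of 0.05 (Pecam1, Cdh5, Lyve1, Prox1 and Flt4). Among all 20352 genes, 14.5% were higher, 10.8% lower and 25.3% passed in either direction, so that 5 of 10 lies above the share of all genes and the directions are mixed. The median log2 difference of the 10 genes was 0.04 with 6 above 0, beside -0.04 and 44.1% above 0 over all genes. Tumour and skin values did not overlap for 2 of the 10 (Kdr and Tek), where 16.0% of all genes showed this. Differences were small, the largest of the 10 being -0.70 for Tek. Without the 3 arrays high in hair keratins, a choice made after seeing the data, Kdr, Flt1 and Emcn still passed and 0 of the 10 were lower, with Tek at -0.72 (limma adjusted p = 0.061) and Plvap at -0.30 (0.17).

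**Figure D1:**
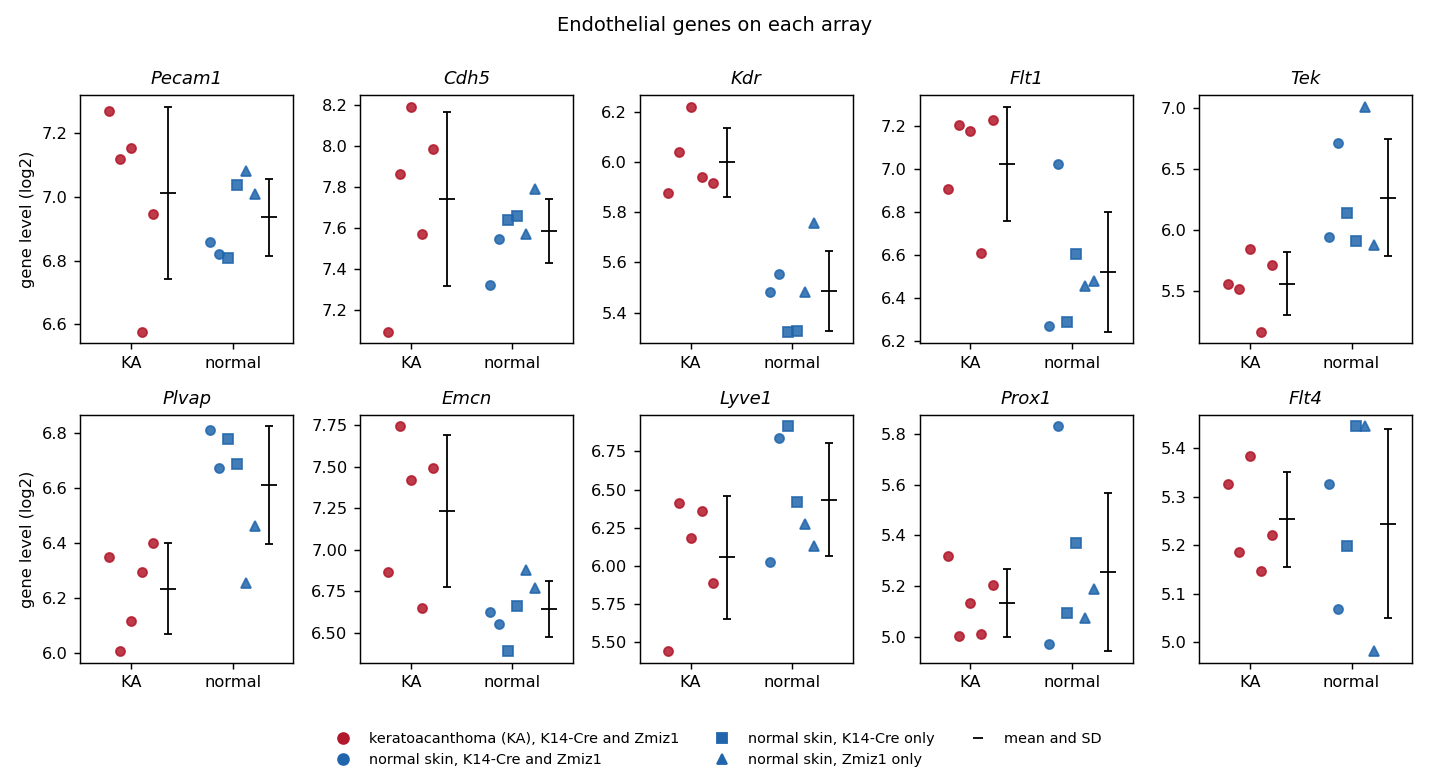
Level (log2, median over probesets) of each of the 10 endothelial genes on each array, keratoacanthoma (KA) in red and normal skin in blue, with marker shape giving the genotype and bars the mean and SD. Each panel has its own axis. Kdr lies above and Tek below normal skin in all 5 tumours. For Prox1 and Flt4 the groups overlap widely, and for Pecam1 and Cdh5 tumours lie both above and below the range of normal skin.

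The junctional genes were spread more widely between tumours than between skins. Pecam1 encodes PECAM-1 (CD31), an adhesion protein of endothelial contacts that platelets and leukocytes also carry. Its levels were 7.27, 7.12, 7.15, 6.58 and 6.95 in keratoacanthomas 1 to 5, and ran from 6.81 through a median of 6.93 to 7.08 in normal skin. Tumours 1, 2 and 3 lay above all 6 skins, tumour 4 lay below them and tumour 5 lay among them. The difference was 0.08 (SE 0.13, 95% interval -0.20 to 0.35, limma adjusted p = 0.70). Of its 19 probesets 12 were higher and 1 of these passed the test on single probesets, where 15.3% of all 211507 probesets passed.

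Cdh5 encodes VE-cadherin, the cadherin of endothelial adherens junctions. The tumours gave 7.09, 7.86, 8.19, 7.57 and 7.99, and normal skin ran from 7.32 through a median of 7.61 to 7.79. Tumours 2, 3 and 5 were above every skin and tumour 1 below every skin, and the SD was 0.43 among tumours and 0.16 among skins. The mean difference of 0.15 (SE 0.17, 95% interval -0.22 to 0.52, limma adjusted p = 0.56) did not pass, and it turned to -0.04 when gene levels were quantile normalized. An interval that reaches 0.52 leaves room for a rise as large as those of Kdr and Flt1. Of 12 Cdh5 probesets 9 were higher and 1 passed.

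Among the VEGF receptors, Kdr had the smallest p at the gene level, but its probesets did not share a direction. KDR (VEGFR2) is the main signalling receptor for VEGF-A on blood endothelium. Its gene levels were 5.88, 6.04, 6.22, 5.94 and 5.92 in the tumours and 5.32 to 5.76 in normal skin, with a median of 5.48. All 5 tumours lay above all 6 skins, by 0.51 on average (SE 0.11, 1.43-fold, limma adjusted p = 0.0036, two-sided exact permutation p = 0.0043). The call held with each of the 11 arrays left out. It did not hold across probesets: 0 of the 29 passed singly in limma (6 at an unadjusted p below 0.05), 18 were higher, and 7 lay below the 25th percentile of all probeset means. The median difference was 0.50 among the 14 probesets with the lower signal and 0.07 among the 15 with the higher signal.

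Individual Kdr probesets ran the other way. Probeset 10530716, the one with the highest mean signal of the gene, gave 8.47, 8.58, 8.96, 8.30 and 8.82 in the tumours and 8.62 to 9.58 in skin (median 9.08). Probeset 10530698 averaged 7.98 in the tumours and 8.48 in skin. Neither differed past the threshold by itself (limma adjusted p = 0.15 and 0.13), but relative to the median of the gene on the same array both fell, as did 10530701 (adjusted p = 0.038, 0.029 and 0.031). In that test of unequal change 4.10% of 202832 probesets passed over all genes, and 3 of 29 did in Kdr. Taking the median over the brighter probesets alone (those ranked by mean signal in the upper part of the gene, 15 of 29), an alternative added after seeing them, turned the Kdr difference to -0.06 (limma adjusted p = 0.80), and leaving out dim probesets left 0.27 (0.12). The direction for Kdr therefore depends on which of its probesets are read.

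Flt1 was higher in keratoacanthoma and called on fewer settings. FLT1 (VEGFR1) binds VEGF-A, VEGF-B and placental growth factor, and a soluble form of it traps ligand. Levels were 6.90, 7.20, 7.18, 6.61 and 7.23 in the tumours and 6.27 to 7.02 in skin, with a median of 6.47. All 5 tumours exceeded 5 of the skins, and normal skin 2 alone reached above tumours 1 and 4. The difference was 0.50 (SE 0.16, 1.42-fold, limma adjusted p = 0.031, two-sided exact permutation p = 0.017). It lost the call without keratoacanthoma 2 (adjusted p = 0.078), 3 (0.075) or 5 (0.081) and without normal skin 1 (0.058), 3 (0.061), 5 (0.053) or 6 (0.052), while the difference in the 11 fits that left out an array was 0.45 to 0.61. Quantile normalization gave 0.46 (0.065), and leaving out normal skin 1 and 3 together 0.38 (0.12). Over the brighter of its probesets the difference was smaller, at 0.29 (adjusted p = 0.041).

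Of 33 Flt1 probesets 26 were higher, 7 of them past the threshold, and 1 was lower past it. Probeset 10535840 gave 8.42, 8.58, 8.13, 8.82 and 8.34 in the tumours against 9.06 to 9.78 in skin (median 9.51), without overlap, and fell by 1.00 on the log2 scale (SE 0.19, limma adjusted p = 0.0038). Probeset 10535831 moved the opposite way, with 7.71, 8.14, 8.05, 7.61 and 7.57 in the tumours against 5.18 to 7.26 in skin (median 5.95), again with no shared range. Its difference was 1.70. The test relative to the gene's median called 2 of the 33, a share not far from the 4.10% of all probesets tested. One of them was 10535840 (adjusted p = 0.0053). Positions of the probesets are not used here, and which part of the gene each covers is not given.

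**Figure D2:**
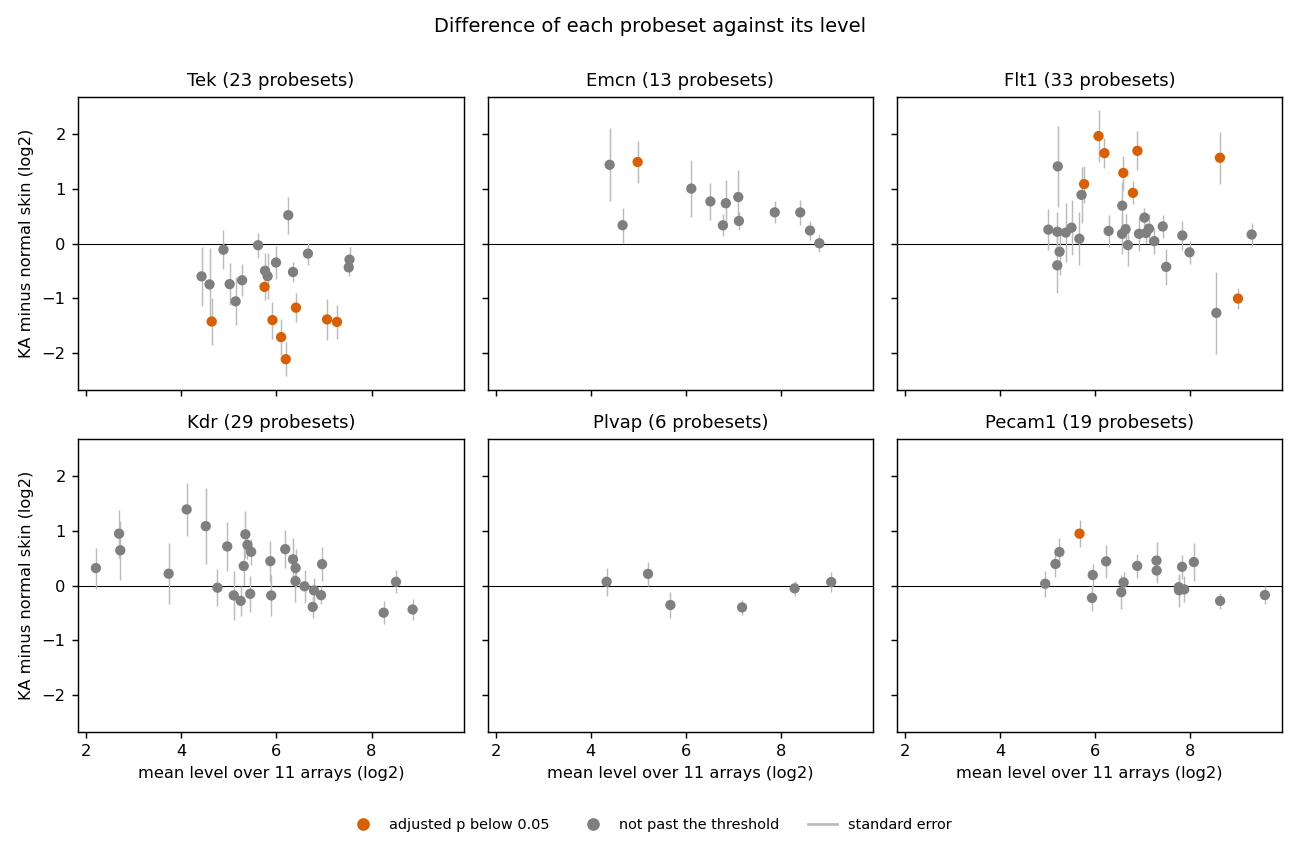
Difference of each probeset between keratoacanthoma (KA) and normal skin (log2, vertical) against its mean level over the 11 arrays (log2, horizontal) for 6 of the genes, with lines for the standard error and orange for adjusted p below 0.05. Tek points lie below 0 for 22 of 23 probesets and Emcn points above 0 for 13 of 13. Kdr points lie on both sides of 0. Above it are 10 of the 14 with the lower signal and 8 of the 15 with the higher signal, and 2 of the 3 highest levels are below it.

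Tek was lower in keratoacanthoma, and its probesets shared the direction. TEK is the receptor tyrosine kinase for angiopoietins on blood endothelium, known for keeping vessels quiescent. The tumours gave 5.56, 5.52, 5.85, 5.17 and 5.72, and normal skin ran from 5.88 through a median of 6.04 to 7.01. Every tumour was below every skin, although tumour 3 was close to the lowest skin, and normal skins 2 and 5 stood above the rest. The difference was -0.70 (SE 0.21, 1.63-fold lower, limma adjusted p = 0.028, two-sided exact permutation p = 0.011). The call was lost without keratoacanthoma 1 (adjusted p = 0.051), 2 (0.059) or 4 (0.071) or normal skin 2 (0.057), and with quantile normalization (0.053), with differences between -0.81 and -0.55 over all settings. Of 23 probesets 22 were lower and 8 passed, and the brighter probesets alone gave -0.79 (adjusted p = 0.0022).

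The largest Tek change was in probeset 10505976, which gave 5.53, 5.02, 5.66, 5.15 and 3.86 in the tumours and 6.61 to 7.59 in skin (median 7.16). It fell by 2.11 on the log2 scale (SE 0.31, limma adjusted p = 0.00093), more than the gene as a whole (adjusted p = 0.043 relative to the gene's median). Probeset 10505967 was the only one higher, by 0.52 (adjusted p = 0.34 by itself and 0.027 relative to the gene), with 6.27, 6.62, 6.86, 6.57 and 6.36 in the tumours among skins of 5.06 to 7.11. Skeletal muscle, a tissue rich in capillaries, was among the tissues higher in normal skin, and its part in the Tek values was not tested. Within the groups, the deviations of Tek from the group means followed those of the muscle list with r = 0.20 over 11 arrays. Those of the blood endothelial list below gave r = 0.28. Over all the lists read here, r ran from -0.64 (tip cell, arterial and Notch genes) to 0.46 (VEGF and angiopoietin genes). These points share tissue piece and array, and r within the groups does not bear on the difference between them.

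Plvap was called lower on a narrow basis. PLVAP forms the diaphragms of fenestrae and caveolae in capillaries and venules. Tumour levels were 6.35, 6.01, 6.12, 6.30 and 6.40, and skin levels ran from 6.25 through a median of 6.68 to 6.81. Only normal skin 5 lay among the tumours, and the difference was -0.38 (SE 0.12, 1.30-fold lower, limma adjusted p = 0.039, two-sided exact permutation p = 0.019). Of its 6 probesets 3 were lower and 0 passed singly in limma (1 at an unadjusted p below 0.05). The mean over probesets gave -0.08 (adjusted p = 0.46) and the brighter probesets -0.05 (0.75). The call was also lost without keratoacanthoma 2 (0.11), 3 (0.092) or 4 (0.058) or normal skin 1 (0.073), 2 (0.064), 3 (0.074) or 4 (0.072).

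Emcn was higher in keratoacanthoma at the gene level, with a positive difference in each of its 13 probesets. Endomucin is a sialomucin on the surface of capillary and venous endothelium. Levels were 6.87, 7.74, 7.42, 6.65 and 7.49 in the tumours and 6.39 to 6.88 in skin, with a median of 6.64. Tumours 2, 3 and 5 stood above all skins, and tumours 1 and 4 lay among them. The difference was 0.59 (SE 0.18, 1.50-fold, limma adjusted p = 0.031, two-sided exact permutation p = 0.017). It was not called without keratoacanthoma 2 (adjusted p = 0.082), 3 (0.075) or 5 (0.082) or normal skin 2 (0.055), 3 (0.061) or 4 (0.052), nor without normal skin 1 and 3 together (0.52, 0.097), and was 0.46 to 0.74 over all settings. Of the 13 probesets 1 passed singly. The smallest difference, 0.0066, was in probeset 10496365, the one with the highest signal, which averaged 8.81 in both groups.

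Among the members with a promoter window, Tek and Emcn were the ones that held any of 4 motifs searched, and their sequences are shown for that reason. RefSeq promoter windows (GRCm38.p6) were held for 6 of the 10 genes, and the 250 bases before each start were searched on both strands. The capitals mark every match: CAGGAAG or its reverse complement for an ETS core (CCGGAAG was searched too), and AACAAT or its reverse complement for a SOX core. No match overlaps another. The windows, both on the plus strand, are chr4:94739039-94739288 for Tek and chr3:137340828-137341077 for Emcn.
Tek: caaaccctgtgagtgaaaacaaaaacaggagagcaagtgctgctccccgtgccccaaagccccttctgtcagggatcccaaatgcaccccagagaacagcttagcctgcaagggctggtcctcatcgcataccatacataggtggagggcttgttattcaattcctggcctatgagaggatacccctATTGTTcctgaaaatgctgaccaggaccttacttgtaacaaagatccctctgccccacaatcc
Emcn: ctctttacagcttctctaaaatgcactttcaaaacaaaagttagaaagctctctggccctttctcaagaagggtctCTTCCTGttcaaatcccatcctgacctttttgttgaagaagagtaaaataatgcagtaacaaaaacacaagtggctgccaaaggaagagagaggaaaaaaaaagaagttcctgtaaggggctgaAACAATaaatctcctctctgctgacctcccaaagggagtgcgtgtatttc
Tek held 1 SOX match, and Emcn 1 SOX and 1 ETS match. Among 32851 windows of the same length, 17.0% held an ETS match and 9.42% a SOX match, beside 1 and 2 of the 7 windows of the members. The share of windows that held any of the 4 motifs was not counted. Whether the matches go with the differences between tumour and skin was not tested. The forkhead core GTAAACA (3.17% of all windows) and the GATA core AGATAA (9.99%) were in 0 of the members' windows. A match describes these letters and is not evidence of binding.

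The lymphatic genes did not pass the test. Lyve1 encodes the hyaluronan receptor of lymphatic capillaries, which macrophages beside vessels also carry. Levels were 5.44, 6.41, 6.18, 6.36 and 5.89 in the tumours and 6.03 to 6.91 in skin, with a median of 6.35. Tumours 1 and 5 lay below all skins and the other tumours among them, with a difference of -0.38 (SE 0.21, 95% interval -0.82 to 0.07, limma adjusted p = 0.21). Of 8 probesets 7 were lower and 1 passed. Perivascular macrophage genes were lower for 5 of 10, where 10.8% of all genes were lower. Their mean level was 5.75 to 6.78 in the tumours and 6.70 to 7.68 in skin, with a median difference of -0.68. Within the groups Lyve1 followed that list with r = 0.41 over the 11 arrays. Over all the lists read here its r ran from -0.64 (tip cell, arterial and Notch genes) to 0.79 (fibroblasts). The part of these cells in the Lyve1 level was not tested.

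Prox1, the transcription factor that sets lymphatic identity, was close to the lower end of all genes, with a mean level of 5.20 beside a 25th percentile of 5.19. The tumours gave 5.32, 5.00, 5.13, 5.01 and 5.21, and skin 4.97 to 5.83 (median 5.15). Normal skin 2 was the highest array at 5.83. It was also the highest in slow muscle fibre genes (mean 7.54, against 6.38 to 7.20 elsewhere), fibres that also express Prox1. The same array was highest in the skeletal muscle list (11.6) and the fibroblast list (8.98). The part of these tissues in the Prox1 level was not tested. The difference was -0.12 (SE 0.15, 95% interval -0.44 to 0.20, limma adjusted p = 0.59). All 7 probesets were lower, 0 passed singly in limma (2 at an unadjusted p below 0.05), and the mean over probesets gave -0.37 (adjusted p = 0.043).

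Flt4 encodes VEGFR3, the receptor for VEGF-C and VEGF-D on lymphatic endothelium. Its tumour levels of 5.33, 5.19, 5.38, 5.15 and 5.22 lay within the range of skin, 4.98 to 5.45 (median 5.26). The difference was 0.01 (SE 0.11, 95% interval -0.23 to 0.25, limma adjusted p = 0.96) and its sign turned under several settings. Of 29 probesets 15 lay below the 25th percentile of probeset means and 0 passed in limma (3 at an unadjusted p below 0.05). Low signal limits what these arrays can show for Flt4 and Prox1.

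The ligands of these receptors moved in part with and in part against them. Of 12 genes for VEGF and angiopoietin ligands and their co-receptors, 2 were higher in keratoacanthoma (Angpt2 and Vegfa) and 3 lower (Angpt1, Vegfd and Nrp1). Among all genes 14.5% were higher and 10.8% lower. The median difference of the 12 was -0.08. Angpt1, the agonist of TEK made by cells around vessels, gave 4.83, 4.28, 3.69, 3.56 and 4.24 in the tumours and 4.59 to 6.16 in skin (median 5.85), overlapping only through tumour 1 and normal skin 1. It was lower by 1.46 (SE 0.31, 2.75-fold, limma adjusted p = 0.0038), lower in 10 of 11 probesets with 3 past the threshold, and dim overall (mean level 4.92). The mean over its probesets gave a smaller difference of -0.83 (adjusted p = 0.0035), and all 5 tumours lay below the 25th percentile of probesets on their arrays (4.88 to 4.95), where a fold is uncertain. Angpt2, made by endothelial cells and known to oppose ANGPT1 in many settings, gave 5.78, 6.18, 5.47, 5.43 and 6.10 against 4.82 to 5.29 in skin (median 5.13). All 5 tumours were above all skins, by 0.71 (SE 0.16, 1.64-fold, limma adjusted p = 0.0054), and all 10 probesets were higher. With Tek at -0.70, the genes of the receptor and of its agonist were both lower, and Angpt2 higher, against all normal skin. Against double transgenic skin alone Angpt2 passed, while Tek and Angpt1 did not, as given below. Angpt1 also differed among the skins, at 4.59 and 4.95 in normal skin 1 and 3 and 5.70 to 6.16 in the others. Whether the changes of these genes are linked was not tested.

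**Figure D3:**
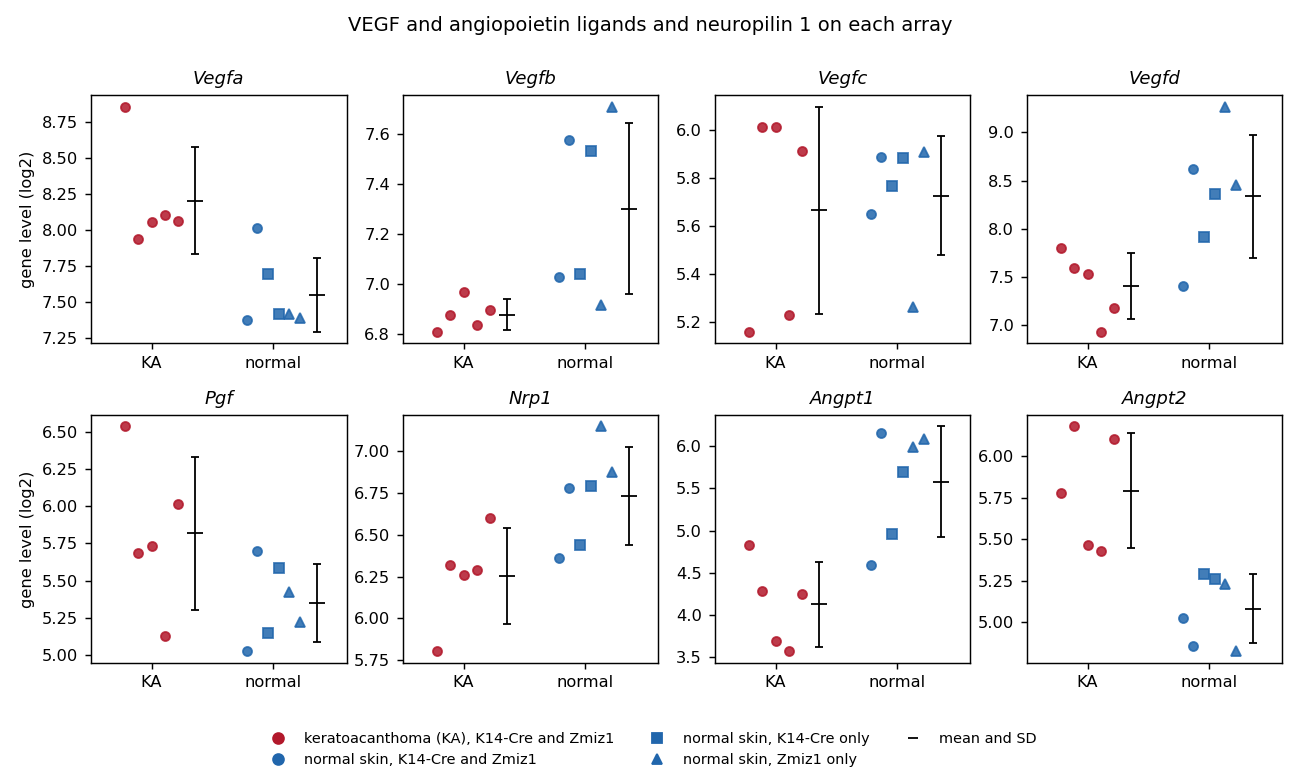
Level (log2, median over probesets) of 7 VEGF and angiopoietin ligands and of Nrp1 on each array, keratoacanthoma (KA) in red and normal skin in blue, with marker shape giving the genotype and bars the mean and SD. Each panel has its own axis. Angpt2 is higher in all 5 tumours without overlap, and Vegfa in keratoacanthoma 1 stands at 8.85, above 7.93 to 8.10 in the other tumours.

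Vegfa, the main growth factor for blood vessels, gave 8.85, 7.93, 8.05, 8.10 and 8.06 in the tumours and 7.37 to 8.01 in skin (median 7.42). Only normal skin 2 reached the tumours. The difference was 0.65 (SE 0.17, 1.57-fold, limma adjusted p = 0.015), and the call was lost with quantile normalization (0.45, adjusted p = 0.13) and without the 3 arrays high in hair keratins (0.67, 0.054). Of 14 probesets 11 were higher, 8 of them past the threshold. Relative to the gene, 6 changed unequally, where 4.10% of all probesets tested did. The median difference was 1.66 among the 7 of higher signal and 0.03 among the 7 of lower signal. Probeset 10451201 gave 9.90, 9.35, 9.16, 8.90 and 9.12 in the tumours against 6.62 to 8.32 in skin (median 7.41). The brighter probesets gave a gene difference of 1.33 (adjusted p = 0.00031), more than 1.5 times the value from all probesets.

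Vegfd, a ligand of FLT4, was lower by 0.93 (SE 0.27, 1.90-fold, limma adjusted p = 0.025), with 7.80, 7.59, 7.53, 6.93 and 7.18 in the tumours and 7.40 to 9.27 in skin (median 8.41). Normal skin 1 alone lay among the tumours. All 9 probesets were lower and 7 passed, and the call was lost without keratoacanthoma 4 (adjusted p = 0.063) or 5 (0.062) or normal skin 2 (0.051). Nrp1, a co-receptor of KDR, was lower by 0.48 (adjusted p = 0.048), but was still called in only 3 of the 11 fits that left out an array (without keratoacanthoma 5, normal skin 1 or normal skin 3). The brighter of its probesets gave -0.25 (0.19). Vegfc, the other ligand of FLT4, differed by -0.06 (95% interval -0.47 to 0.35, adjusted p = 0.85), and Pgf, placental growth factor, by 0.47 (0.01 to 0.93, adjusted p = 0.13).

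A longer list of 25 blood and pan-endothelial genes, chosen with earlier results of these data known, was read beside the 10. In keratoacanthoma 1 was higher (Ecscr), 3 were lower (Cd34, Sox17 and Cldn5) and 21 did not pass, where 25.3% of all genes did, with a median difference of -0.05. The mean level of the list was 6.23 to 6.40 in the tumours and 6.33 to 6.47 in skin. Cd34, a sialomucin of endothelium that skin stromal cells and hair follicle cells also carry, gave 7.69, 7.47, 7.25, 7.22 and 7.82 against 8.15 to 9.12 (median 8.89) and was lower by 1.31 (SE 0.18, limma adjusted p = 0.00023), with no overlap. Ecscr, an endothelial surface protein, gave 7.27, 8.02, 7.57, 7.67 and 8.24 against 6.95 to 7.24 (median 7.07) and was higher by 0.67 (SE 0.15, adjusted p = 0.0062), again with no overlap. With double transgenic skin only as reference, its difference was 0.69 (limma adjusted p = 0.095). In the 4-group model given below, 0 of the 25 were higher than in double transgenic skin and 1 was lower, where 17.6% of all genes passed.

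Sox17, a transcription factor of arterial endothelium, was lower by 0.72 (limma adjusted p = 0.0057), with tumour 3 at 5.85 above the others at 5.08 to 5.27. Without dim probesets its difference was -0.28 (adjusted p = 0.26), over the brighter of its probesets -0.33 (0.15), and as the mean over all of them -0.36 (0.046). Cldn5, the claudin of endothelial tight junctions, was lower by 0.35 (adjusted p = 0.032), a call lost without keratoacanthoma 1 (0.055), 4 (0.082) or 5 (0.085) or normal skin 3 (0.055), 4 (0.063) or 6 (0.064). Of 9 further lymphatic genes measured 0 were higher and 1 was lower (median difference -0.13), beside 14.5% and 10.8% of all genes. That one was Sema3d, a semaphorin, lower by 1.49 (SE 0.31, adjusted p = 0.0031) without overlap. Tumour 3 (6.49) came close to normal skin 3 (6.52) and 1 (6.53), 2 of the arrays high in hair keratins. The other skins gave 7.57 to 8.23. With double transgenic skin only as reference Sema3d differed by -1.15 (limma adjusted p = 0.048). In the 4-group model given below, however, 0 of the 9 passed against double transgenic skin.

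Genes of vessel state had medians near 0 as lists. Of 12 tip cell, arterial and Notch genes, 1 was higher and 1 lower (median -0.05), where 14.5% of all genes were higher and 10.8% lower. Ephb4, the receptor of venous endothelium for ephrin-B2, was higher by 0.69 (limma adjusted p = 0.0036), but -0.14 (0.49) over the brighter of its probesets. Cxcr4, a chemokine receptor of tip cells and leukocytes, was lower by 0.50 (0.048), but 0.11 (0.45) as the mean over its 3 probesets, and was called in 2 of the 11 fits that left out an array (without keratoacanthoma 5 or normal skin 3). Of 8 genes of activated endothelium and venules, 1 was higher and 1 lower (median 0.06), beside the same shares of all genes. The adhesion molecule Vcam1 was higher by 0.46 (adjusted p = 0.0497), called in 3 of those 11 fits (without keratoacanthoma 4, normal skin 3 or normal skin 6) and 0.02 over the brighter probesets. Madcam1, another adhesion molecule, was lower by 0.39 (0.023), and not called without keratoacanthoma 2 (0.055) or 3 (0.065).

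**Figure D4:**
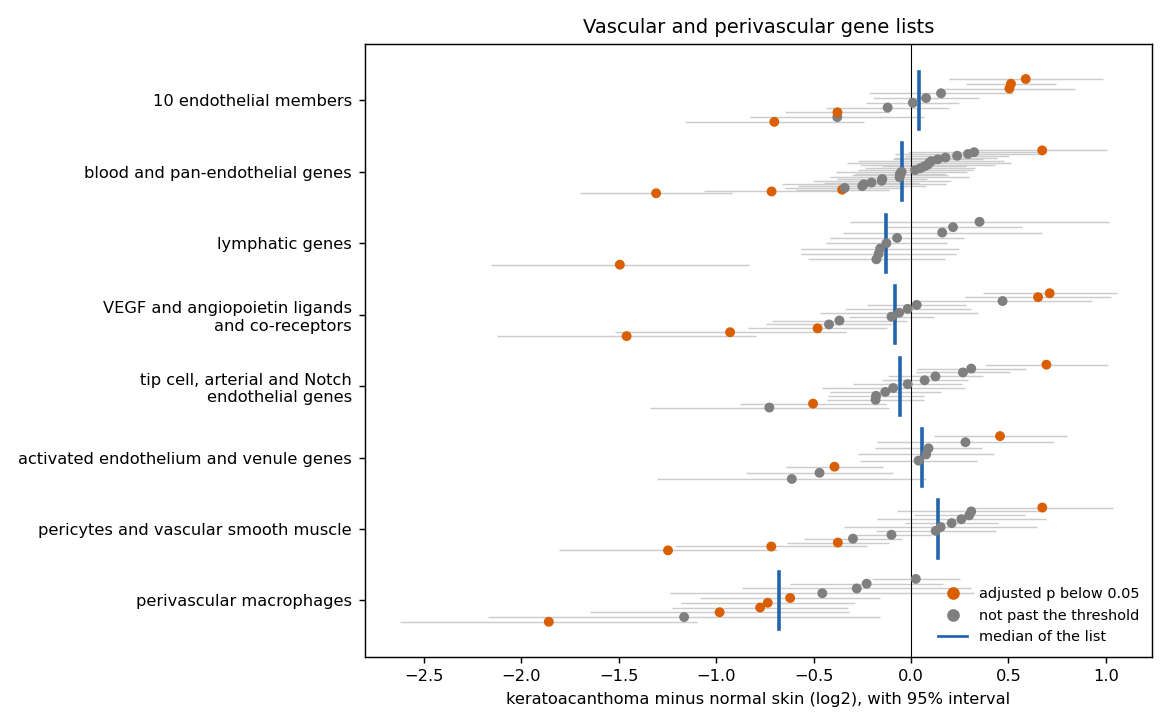
Difference between keratoacanthoma and normal skin (log2) of every measured gene of 8 vascular and perivascular lists, with 95% intervals, orange for adjusted p below 0.05 and a blue line for the median of each list. List medians of the endothelial genes lie between -0.13 and 0.06, and that of perivascular macrophages at -0.68.

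Cells that accompany vessels or share endothelial markers were read the same way, beside 14.5% of all genes higher and 10.8% lower. Of 12 genes of pericytes and vascular smooth muscle 1 was higher and 3 were lower (median 0.14, mean level 6.72 to 7.07 in the tumours and 6.89 to 7.11 in skin). Of 6 platelet genes measured 1 was higher and 1 lower (5.89 to 6.27 and 5.82 to 6.45), and of 6 leukocyte genes 0 passed in limma, with 0 at an unadjusted p below 0.05 (6.84 to 7.65 and 7.30 to 7.90). Slow muscle fibre genes numbered 1 higher and 1 lower of 6, and 0 of 9 hair shaft keratins passed in limma (0 at an unadjusted p below 0.05). Pecam1, which platelets and leukocytes carry, gave r = -0.15 with the platelet list and r = -0.11 with the leukocyte list within the groups. Over all the lists its r ran from -0.62 (hair shaft keratins) to 0.50 (VEGF and angiopoietin genes). The part of platelets and leukocytes in the Pecam1 level was not tested.

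Within the groups, the members varied loosely together. Over 11 arrays, the deviations of 2 members from their group means correlated from -0.57 (Plvap with Emcn) to 0.73 (Flt1 with Prox1) over 45 pairs, with a median of 0.13. The mean deviation of the 7 blood vessel members followed the list of 25 endothelial genes with r = 0.81, pericytes with 0.66 and hair shaft keratins with -0.68. Among single genes, Cdh5 (0.83) and Emcn (0.80) followed the pericyte list and Plvap did not (-0.57). These points share array and tissue piece, and the 3 arrays high in hair keratins weigh in each of them. By the same measure, the genes most like the blood vessel members were Wdfy1 (r = 0.94), Gm9078 (0.93), Cfap410 (0.90), Zfp568 (0.89), Zfp719 (0.88), Agtr1a (0.87), Sdc2 (0.87) and Gm13352 (0.87). For the 3 lymphatic members they were Gm5406, Syt15, Gpr146, Ifna14, Hrct1, Gm10787, Sspn and Angpt4 (0.90 to 0.94). With 11 arrays and so many genes compared, values of this size describe the arrays only.

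Genotype was held fixed by setting the tumours against normal skin 1 and 2 alone, in a model of 4 groups. Of the 11 arrays, normal skin 2 had the lowest weight in the alternative fit with array weights (0.41, others 0.71 to 1.64). In the 4-group model 17.6% of all genes passed. Of the 10 members Kdr was higher (0.48, limma adjusted p = 0.033) and Plvap lower (-0.51, 0.033), both with the reservations on their probesets given above. Tek differed by -0.76 (adjusted p = 0.10), Emcn by 0.64 (0.11) and Flt1 by 0.38 (0.27). With 2 reference pieces these values moved with single arrays: Tek was -1.15 without normal skin 1 (adjusted p = 0.046, then called) and -0.38 without normal skin 2, and Flt1 0.00036 and 0.76. Emcn ran from 0.52 to 0.79 over the 11 fits that left out an array, and passed without keratoacanthoma 4. The calls were lost for Kdr without keratoacanthoma 2 (0.067), 3 (0.061) or 5 (0.051) or normal skin 1 (0.097) or 2 (0.14), and for Plvap without keratoacanthoma 2 (0.063) or 3 (0.066) or normal skin 1 (0.11) or 2 (0.12). Pecam1 (0.17), Cdh5 (0.31), Lyve1 (-0.38), Prox1 (-0.26) and Flt4 (0.06) did not pass (adjusted p from 0.39 to 0.84), and Prox1 was -0.69 (0.021) without normal skin 1 and 0.16 without normal skin 2. Among the ligands, Angpt2 passed (0.85, 0.023), and Angpt1 (-1.25, 0.063), Vegfa (0.51, 0.18) and Vegfd (-0.60, 0.25) did not.

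Normal skin of double and of single transgenic mice was compared to see whether the transgene pair went with a difference in skin labelled normal. Of all genes 0.0147% passed (3 of 20352), and 0 of the 10 members did (0 at an unadjusted p below 0.05 as well). Member differences ran from -0.23 to 0.22, with adjusted p from 0.68 to 1.0 in limma. With 2 against 4 pieces, differences of the size seen in the tumours could not be told from 0 here for most members: the standard error was 0.14 to 0.31.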

How the data were processed

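Per the submitters' processing notes, the deposited values are log2 levels made by the authors with RMA (background correction, quantile normalization and probe summary) in Partek, on genome build mm9; versions and settings are not given in the sources used here. The median over probesets gives 1 value per gene and does not show where probesets of a gene differ, so single probesets were read too. Of 241576 probesets, 212097 named 1 gene, 590 identical ones were dropped and 211507 were used for 20352 genes, with 2742 symbols updated.

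Groups were compared with limma 3.58.1 in R 4.3.3 (lmFit, eBayes, Benjamini-Hochberg over all genes or probesets, threshold 0.05). The 4-group model gave the genotype comparisons, and each probeset minus its gene's median on the same array gave the test of unequal change in genes of at least 4 probesets. Exact two-sided permutation tests over 5 and 6 arrays cannot give less than 0.0022. Code was tested on simulated data. Tables and figures used Python 3.11.15, pandas 2.3.3, numpy 2.4.6, scipy 1.17.1 and matplotlib 3.10.9.

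The members and lists were chosen with earlier results of these data known. Named were all members, up to 4 genes per vascular list past the threshold in the direction with more such genes and up to 2 in the other, and the 8 genes most like each member profile. Of the ligands, Vegfc and Pgf were named outside that rule, after their values were seen, as were the single probesets. Alternatives were the mean over probesets, dim probesets or genes left out (below the 25th percentile), quantile normalization, median centring, trended robust variances, array weights, a replicate block, other references, and each array or the arrays high in hair keratins left out. Pairing by the titles' numbers was checked and not used.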

Additional observations from a re-analysis of the deposited data

Results flagged for a closer look

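Among 48 sets of arrays examined (each named gene in each group), 2 held an array far from the others, where chance gives about 1 in 20 such sets. Vegfa in keratoacanthoma 1 was 8.85, against 7.93 to 8.10 in the other 4 tumours. Sox17 in keratoacanthoma 3 was 5.85, against 5.08 to 5.27 in the other 4. Neither array stood apart in this way for any of the 10 endothelial genes.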

How the results depend on the processing

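In the comparison with all normal skin, over 25 alternatives for each gene, Kdr was called in 23, Tek in 17, Emcn in 15, Flt1 in 14 and Plvap in 9. The cause of each loss was not tested. Signs turned for Cdh5 with quantile normalization (-0.037), for Kdr (-0.055) and Ephb4 (-0.14) over the brighter probesets, for Cxcr4 as a mean (0.11), and for Flt4 with array weights (-0.0056), single transgenic skin as reference (-0.014), the replicate block (-0.043) and arrays left out (-0.043 to 0.0496). With each array left out, 1 to 3 members were higher and 0 to 2 lower. Members higher fell to 1 with the replicate block, with double transgenic skin as reference and without normal skin 1 and 3. Members lower were 0 with quantile normalization, with either reference and without the 3 arrays high in hair keratins, and 1 with centring, the brighter probesets, or without normal skin 1 and 3. Double transgenic skin as reference gave 1942 genes higher and 1244 lower.

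The replicate numbers in the titles did not pair the pieces: same-numbered deviations correlated from -0.18 to 0.10. The block drops normal skin 6, which has no partner. With it Lyve1 passed (-0.44, limma adjusted p = 0.045), while Flt1, Plvap, Emcn and Vegfa (0.62, 0.067) did not. The block also lost the calls of Vegfd (-0.91, 0.078), Cldn5 (-0.31, 0.14), Cxcr4 (-0.50, 0.10) and Madcam1 (-0.37, 0.12).

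Against double transgenic skin alone, the mean over probesets gave 2301 genes lower and 0 members lower. Members higher and lower were both 0 without dim probesets and over the brighter probesets, and 0 were lower with centring. Leaving out arrays gave 503 (without normal skin 2) to 2542 genes higher, 323 (without normal skin 2) to 2111 lower, 0 to 2 members higher and 0 to 2 lower. It gave -0.78 to 0.028 for Lyve1, -0.69 to 0.16 for Prox1 and -0.073 to 0.18 for Flt4.

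Between double and single transgenic normal skin, signs turned for Cdh5 (0.084), Kdr (-0.16), Tek (-0.16) and Emcn (0.13) over the brighter probesets, for Kdr without dim probesets (-0.12), and for Tek (-0.13), Plvap (-0.018) and Lyve1 (0.038) as means. Leaving out arrays gave -0.023 to 0.11 for Kdr, -0.19 to 0.57 for Flt1, -0.29 to 0.48 for Tek, -0.41 to 0.40 for Lyve1, -0.21 to 0.65 for Prox1 and -0.20 to 0.059 for Flt4. It gave 0 to 187 genes higher and 0 to 159 lower, the highest both without normal skin 1. Genes higher were 0 as means, without dim probesets, over the brighter probesets and in the fit on 6 arrays. Genes lower were 2 as means and 0 without dim probesets and in the fit on 6 arrays. Low signal limits what can be said of Prox1, Flt4, Angpt1 and the dim probesets of Kdr.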
